A study of Mus musculus with 24 samples.

Results

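The hepatocyte genes described here encode the carriers that move bile acids and lipids into and out of the liver cell: Slc10a1, Abcb11, Abcb4, Abcg5, Abcg8 and Atp8b1. They were taken as named genes with every probe annotated to them, which gave 6 probes, 1 for each gene, of 25697 on the array, and all 6 were among the 7272 genes tested. RNA came from livers of male C57Bl6/J mice, 20 weeks old, taken at 6 zeitgeber times (ZT, the hours since lights on), spaced by 4 h with ZT0 the earliest and ZT20 the latest. In the double knockout (DKO, Reverb alpha/beta with Alb Cre+) an albumin-driven Cre recombinase, active mainly in hepatocytes, removes both Rev-erb receptors, and wild-type (WT) mice were Reverb alpha/beta with Alb Cre-. Each of the 12 combinations of genotype and time had 2 Illumina bead arrays, named technical replicates in the labels, and averaging them turned 24 arrays into 12 values, 6 per genotype. The sources used here do not say how many animals stand behind an RNA sample. Nothing says that the arrays come from separate animals, so the p-values measure the spread among these 12 values alone, part of which may be technical.

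Bile forms when hepatocytes pump bile acids and lipids across their canalicular membrane, and water follows. Bile acids return from the gut in portal blood and are taken up across the sinusoidal membrane by Slc10a1 (NTCP), a sodium-coupled carrier. Abcb11 (the bile salt export pump) secretes them into bile, Abcb4 flips phosphatidylcholine into the outer leaflet so that it can be extracted, and Abcg5 and Abcg8 form 1 obligate heterodimer that secretes cholesterol and plant sterols. Atp8b1 is an aminophospholipid flippase that keeps the canalicular membrane ordered. Rev-erb alpha and beta, encoded by Nr1d1 and Nr1d2, are nuclear receptors of the circadian clock that repress transcription and bind the half-site AGGTCA after an A/T-rich flank.

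The promoter windows of 5 members, 250 bases before to 50 after a start site in RefSeq (build GRCm38.p6), are given for the members on which the results turn. The windows of Abcg5 and Abcg8 are head to head: their starts lie 110 bases apart on opposite strands of chromosome 17 and 209 bases are common to both. These 209 bases are in capitals in the Abcg8 window (chr17:84682871-84683170, plus strand).
Abcg8: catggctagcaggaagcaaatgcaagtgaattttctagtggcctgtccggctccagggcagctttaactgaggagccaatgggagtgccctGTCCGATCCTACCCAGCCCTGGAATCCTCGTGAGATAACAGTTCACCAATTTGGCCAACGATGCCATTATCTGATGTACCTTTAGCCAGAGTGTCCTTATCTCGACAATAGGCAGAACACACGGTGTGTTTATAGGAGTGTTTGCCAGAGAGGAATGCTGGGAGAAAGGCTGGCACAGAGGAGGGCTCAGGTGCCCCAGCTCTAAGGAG
The letters AGGTCA, searched on both strands, were found in 2 of the 7 member windows and in 16.3% of all 32851 windows of 300 bases. One is a Slc10a1 window (chr12:80968030-80968329, minus strand), where the match in capitals begins 87 bases before the start. The search took AGGTCA alone, without the A/T-rich flank, and the bases just before this match are mostly G or C. The other Slc10a1 window held none.
Slc10a1: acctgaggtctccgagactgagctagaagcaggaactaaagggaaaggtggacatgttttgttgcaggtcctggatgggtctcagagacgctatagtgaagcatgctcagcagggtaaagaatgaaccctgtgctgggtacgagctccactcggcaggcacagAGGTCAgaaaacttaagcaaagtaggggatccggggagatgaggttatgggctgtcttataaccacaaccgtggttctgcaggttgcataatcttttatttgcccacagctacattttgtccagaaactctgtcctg
The second is the Abcb11 window (chr2:69342567-69342866, minus strand). Its capitals mark a match to AGGNCA followed after 1 base by TGACCT, an inverted repeat of the half-site (the form of site that the bile acid receptor FXR is known to bind), which holds the AGGTCA match of the opposite strand. The repeat, searched on both strands, begins 63 bases before the start and was found in 0.0365% of all windows. Read on the opposite strand, the bases just before its AGGTCA are mostly A or T. Binding of either receptor to this site was not tested.
Abcb11: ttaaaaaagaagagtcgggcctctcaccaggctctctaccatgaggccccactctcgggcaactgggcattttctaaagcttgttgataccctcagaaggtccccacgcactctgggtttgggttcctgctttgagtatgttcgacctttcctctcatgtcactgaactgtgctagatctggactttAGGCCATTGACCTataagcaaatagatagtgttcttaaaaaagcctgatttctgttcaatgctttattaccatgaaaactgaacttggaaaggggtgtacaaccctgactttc
The motifs were chosen with these windows in view, and a match is a description of the letters only. The windows of Abcb4 and Abcg5, and both of Abcg8, held neither motif. No window was used for Atp8b1.

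The raw median signal was 245 to 341 units, 34.8 to 40.2% of probes were detected and correlations between the 2 arrays of a group were 0.989 to 0.994. Values below are log2 normalized intensities, on which 1 unit is a 2-fold difference, and levels of different probes are not set against each other. DKO and WT samples of the same time never shared a slide: slide 1 held DKO at ZT0 to ZT12, slide 2 held DKO at ZT16 and ZT20 with WT at ZT0 and ZT4, and slide 3 held WT at ZT8 to ZT20. Raw medians went with the slides, at 277 to 341 units on slide 1 and 245 to 261 on slide 3. The arrays of DKO at ZT0 had the highest, 341 and 325. Probes detected were 34.8 to 37.2% on slide 1 and 38.2 to 40.2% on slide 3. Nr1d1 averaged 9.89 in DKO and 8.30 in WT livers and Nr1d2 averaged 9.93 in DKO and 9.41 in WT livers. Both passed as higher in DKO in the test of daily means described below (limma, adjusted p = 0.0135 and 0.0265). Their transcripts were thus not absent in DKO, and where their probes lie relative to the deleted part is not given, so they check nothing. The hepatocyte genes Ttr and Apoa1 were near 16.1 in both genotypes and detected on 12 of 12 DKO and 12 of 12 WT arrays. Their SDs over times were 0.005 to 0.014, and the acute phase genes Hp and Fga averaged 16.02 to 16.08. Probes this bright may be at the top of the scale, which was not tested, so they check little about a genotype difference. One sample stood apart, DKO at ZT0, with a mean of 10.81 over 2 neutrophil genes, against 7.87 to 9.31 in the other DKO samples and 7.65 to 8.72 in WT samples.

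Of the 6 transporters, 1 changed in daily mean between genotypes, Slc10a1, which was lower in DKO livers. The test was limma's moderated test of DKO minus WT in a model with a mean and a 24 h cosine and sine for each genotype, with the times standing in for replicates and p-values adjusted by Benjamini-Hochberg over 7272 genes at a threshold of 0.05. By the same rule 677 genes passed, 9.31% of those tested, of which 363 were lower (4.99%) and 314 higher (4.32%) in DKO. The members' 1 of 6 is to be read against that background. Their median absolute difference was 0.19, beside 0.16 over all genes, and their median difference was -0.02, beside 0.02 over all genes.

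Slc10a1 signal in DKO livers was 6.95, 7.98, 7.88, 8.14, 7.70 and 7.24 from ZT0 to ZT20, against 8.38, 7.97, 8.06, 8.33, 8.48 and 8.49 in WT livers. The DKO samples at ZT0 and ZT20 were the lowest of all 12, while at ZT4 the genotypes were level. The daily mean was 7.65 ± 0.46 in DKO and 8.28 ± 0.22 in WT livers (SD over times, n = 6 each), a difference of -0.64 ± 0.11 (SE; 95% confidence interval -0.89 to -0.38), or 1.55-fold lower in DKO (limma, adjusted p = 0.0127). It was lower in DKO at 5 of 6 times, and 5.83% of all genes had a larger absolute difference. At 3 times, ZT0, ZT16 and ZT20, both DKO arrays lay below both WT arrays with means at least 1.5-fold apart, by -1.42, -0.78 and -1.25. These sizes depend on the scaling: without background correction they were -0.65, -0.41 and -0.60, and ZT16 was then under 1.5-fold, as it also was in the authors' processed values. Without the DKO ZT0 sample the difference was -0.56 (limma, adjusted p = 0.0213).

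The Slc10a1 probe was dim, with raw signals of 335 to 630 units, and was detected (detection p under 0.01) on 10 of 12 DKO arrays and 12 of 12 WT arrays. At the 2 times with the lowest DKO signal, ZT0 and ZT20, 1 of the 2 DKO arrays was above that limit at each. Its 2 arrays of a group differed with an SD of 0.27 and by up to 0.82, at DKO ZT20, more than any other member's. The difference was smaller without background correction, at -0.31, and in the authors' processed values, at -0.33, and still passed (limma, adjusted p = 0.0148 and 0.0135). Within slide 2, which holds both genotypes at different times, Slc10a1 averaged 7.47 in DKO and 8.17 in WT samples, a difference of -0.70 with no test. With slide as a fixed block the difference was -0.45 and did not pass (limma, adjusted p = 0.678), and in that fit 0 of 7272 genes passed, with 793 at an unadjusted limma p under 0.05. It did not pass with slide as a random block either (limma, adjusted p = 0.0696), with time as a factor (limma, adjusted p = 0.0831), or when ZT8, ZT12, ZT16 or ZT20 was left out (limma, adjusted p = 0.0625 to 0.0814). The plot of the Slc10a1 difference by setting shows a value below 0 in each of these fits.

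**Figure D1:**
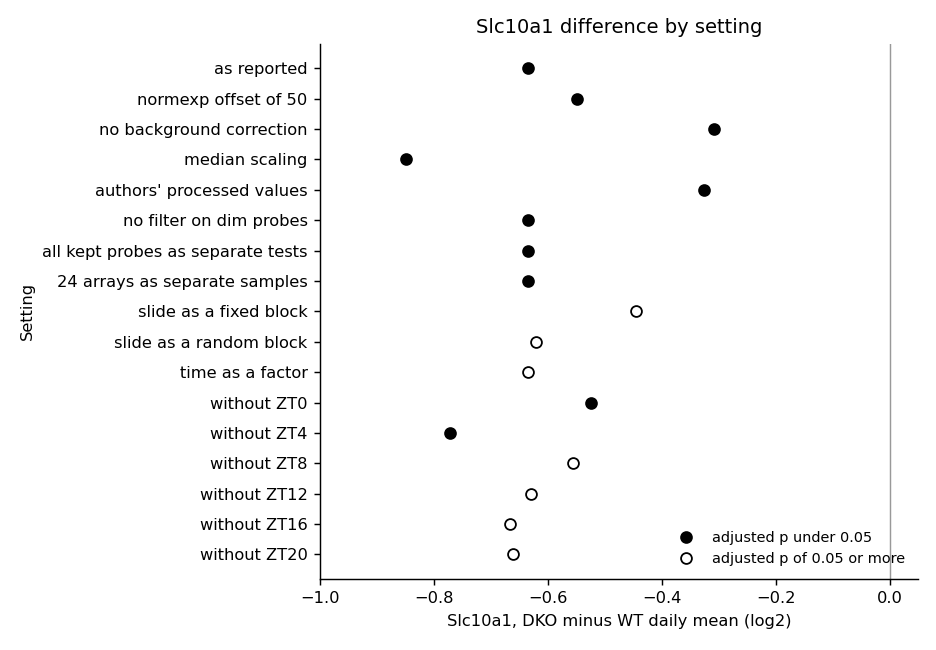
Slc10a1 DKO minus WT difference in daily mean (log2 normalized intensity, horizontal axis) under each processing or model setting (rows); filled points passed the threshold and open points did not. All points lie left of 0, from -0.85 with median scaling to -0.31 without background correction, and the open points are the 2 slide fits, time as a factor and the fits without ZT8, ZT12, ZT16 or ZT20.

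Abcb11, the export pump that sets the pace of bile acid secretion, was 12.65, 12.98, 12.58, 12.68, 12.85 and 12.99 in DKO livers from ZT0 to ZT20, against 12.89, 12.85, 12.51, 11.95, 12.35 and 12.63 in WT livers. WT signal was lowest at ZT12. Both DKO arrays lay above both WT arrays at 5 of 6 times and below them at ZT0, and the distance was at least 1.5-fold only at ZT12, by 0.73. The daily mean was 12.79 ± 0.18 in DKO and 12.53 ± 0.35 in WT livers (SD, n = 6 each). The difference of 0.26 ± 0.10 (SE) did not pass (limma, adjusted p = 0.135), and its 95% confidence interval was 0.03 to 0.49. With median scaling of the arrays, which moved the median of all genes to -0.20, it was 0.02 (limma, adjusted p = 0.904). Within slide 2 it was 0.06.

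Abcb4, the phosphatidylcholine floppase, was 13.97, 13.85, 13.94, 13.76, 14.11 and 14.23 in DKO livers from ZT0 to ZT20, against 13.76, 13.96, 14.12, 14.43, 14.06 and 14.24 in WT livers. Here ZT12 was the highest WT value and the lowest DKO value, and the genotypes differed there by -0.66 with no overlap of arrays. At the other times the means were at most 0.21 apart. Over the day the difference was -0.12 ± 0.10 (SE), with means of 13.98 ± 0.17 in DKO and 14.10 ± 0.23 in WT livers (SD, n = 6 each), and it did not pass (limma, adjusted p = 0.475). Within slide 2 the DKO mean was 14.17 and the WT mean 13.86, a difference of 0.31, opposite in sign to that over the day.

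Atp8b1, the canalicular flippase, was 10.70, 10.51, 10.55, 10.82, 10.27 and 10.78 in DKO livers from ZT0 to ZT20, against 10.59, 10.63, 9.92, 10.05, 10.45 and 10.37 in WT livers. WT signal was lowest at ZT8 and ZT12, and DKO arrays lay above WT arrays at both, by 0.63 and 0.78. Means over the day were 10.60 ± 0.21 in DKO and 10.33 ± 0.29 in WT livers (SD, n = 6 each), and the difference of 0.27 ± 0.13 (SE) did not pass (limma, adjusted p = 0.213). With median scaling it was 0.03 (limma, adjusted p = 0.871), and within slide 2 it was -0.09. With slide as a fixed block it was -0.42 (limma, adjusted p = 0.683), so its direction is not settled apart from the slides.

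**Figure D2:**
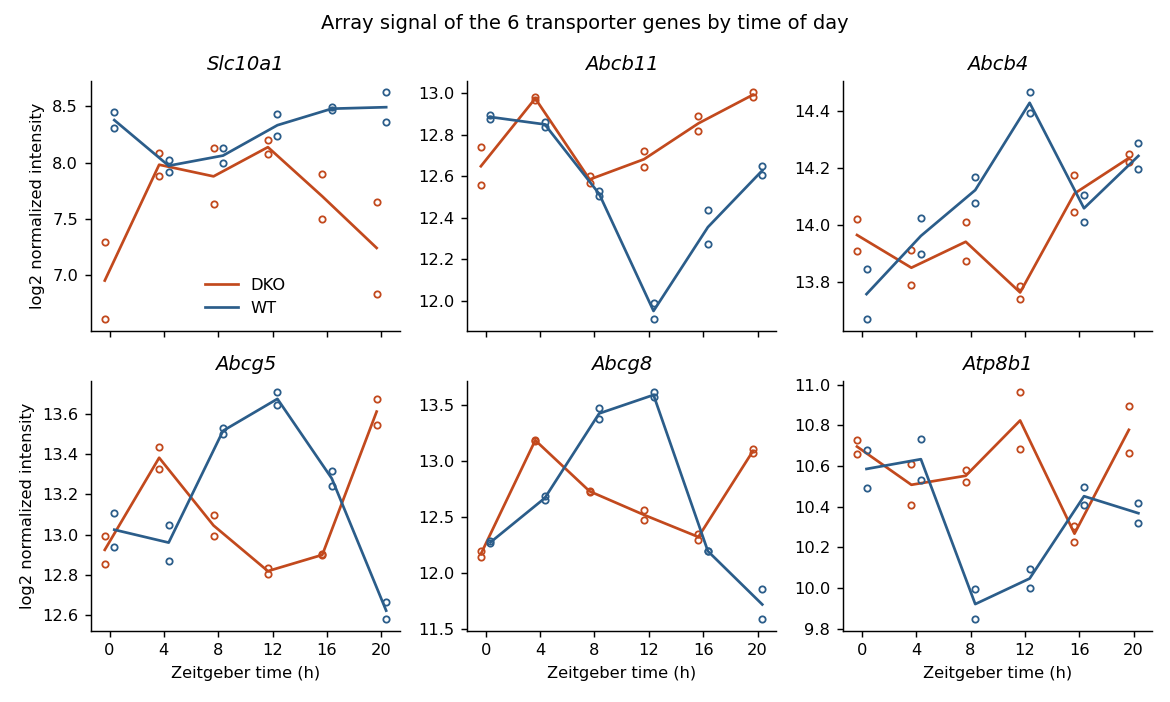
Log2 normalized intensity of each member (vertical axis, a scale of its own per panel) against zeitgeber time in hours. Open circles are single arrays, lines join the means of the 2 arrays, and DKO (orange) is drawn just left of WT (blue); at ZT12 the 2 DKO arrays lie apart from the 2 WT arrays in all 6 panels, with Slc10a1 the only member less than 1.5-fold apart there.

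In WT livers the sterol transporter pair had the widest swings of the members over the day. Abcg8 was 12.17, 13.19, 12.73, 12.52, 12.32 and 13.09 in DKO livers from ZT0 to ZT20, against 12.27, 12.67, 13.43, 13.59, 12.20 and 11.72 in WT livers. WT signal was highest at ZT8 and ZT12 and lowest at ZT20, whereas DKO signal was highest at ZT4 and ZT20. DKO livers were lower at ZT8 (-0.70) and ZT12 (-1.07) and higher at ZT20 (1.37), with no overlap of arrays. The daily means were 12.67 ± 0.41 in DKO and 12.65 ± 0.73 in WT livers (SD, n = 6 each), and the difference of 0.02 ± 0.20 (SE; 95% confidence interval -0.43 to 0.48) did not pass (limma, adjusted p = 0.952). Within slide 2 it was 0.23.

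Abcg5, its partner, was 12.92, 13.38, 13.05, 12.82, 12.90 and 13.61 in DKO livers from ZT0 to ZT20, against 13.02, 12.96, 13.52, 13.67, 13.28 and 12.62 in WT livers. In DKO it was highest at ZT20 and lowest at ZT12, and in WT, like Abcg8, it was highest at ZT12 and lowest at ZT20. DKO was lower at ZT12 (-0.85) and higher at ZT20 (0.99), again with no overlap of arrays. Daily means were 13.11 ± 0.31 in DKO and 13.18 ± 0.39 in WT livers (SD, n = 6 each), and the difference of -0.07 ± 0.15 (SE) did not pass (limma, adjusted p = 0.809). Within slide 2 it was 0.26. Both genes' differences at ZT8, ZT12 and ZT20 had the same sign under all 4 other scalings of the arrays.

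Over the 12 samples Abcg5 and Abcg8 correlated at r = 0.86, with 0.86 within DKO and 0.88 within WT (6 samples each, which share slides and times). The other 14 pairs of members had r between -0.58 and 0.57 over the same samples. Among all tested genes each of the pair was the second most alike to the other. The swing in WT was larger for Abcg8, 1.87 between its highest and lowest time (3.66-fold), than for Abcg5 at 1.05 (2.07-fold), and 2.49% and 13.5% of all genes had a larger one. The 4 WT samples from ZT8 to ZT20 were on a single slide, so this swing lay within slide 3 for both genes. On slide 2, DKO Abcg8 was 0.77 higher at ZT20 than at ZT16 and DKO Abcg5 was 0.71 higher.

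**Figure D3:**
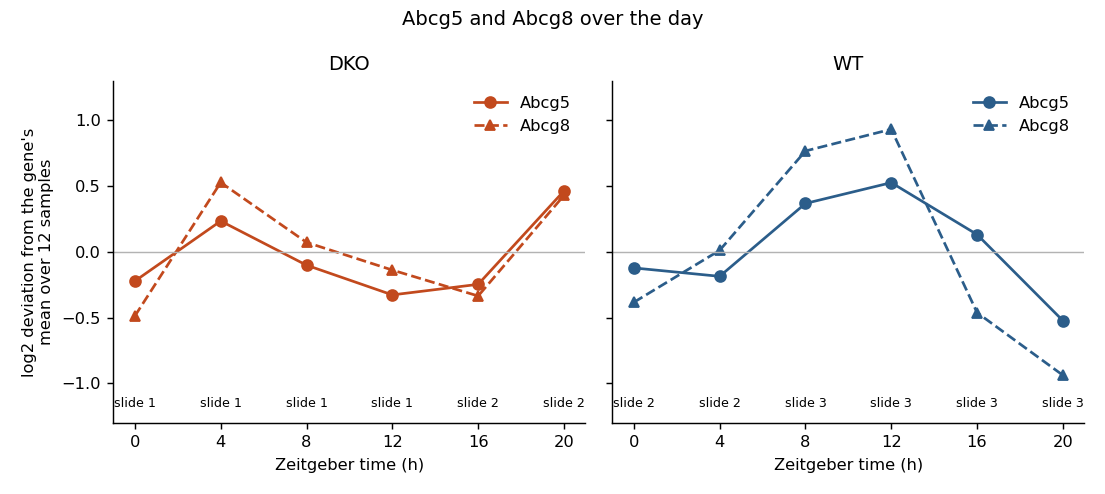
Abcg5 (circles, solid) and Abcg8 (triangles, dashed) as log2 deviation from the gene's own mean over the 12 samples (vertical axis) against zeitgeber time in hours, DKO left and WT right, with the slide of each sample printed at the bottom. Both genes peak at ZT12 in WT, where Abcg8 is 0.93 and Abcg5 0.53 above its mean, and in DKO both are above their means at ZT4 and ZT20.

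Read time by time, the members were apart most often at ZT12. A gene was counted at a time where both arrays of 1 genotype lay above both of the other and the means were at least 1.5-fold apart, a description with no test, as each time has 1 RNA sample per genotype. By that rule 1 member of 6 was counted at ZT0 (23.6% of all genes), 0 at ZT4 (8.55%), 2 at ZT8 (16.4%), 5 at ZT12 (18.4%), 1 at ZT16 (11.3%) and 3 at ZT20 (13.8%). Of 36 member and time pairs, 12 were counted, 5 higher and 7 lower in DKO. At ZT12 Abcb11 and Atp8b1 were higher in DKO livers, while Abcb4, Abcg5 and Abcg8 were lower. At ZT20 Abcg5 and Abcg8 were higher and Slc10a1 lower, so the members did not share a direction at either time. At any 1 time the genotype difference is also a slide difference, and these cannot be told apart. With median scaling the ZT12 differences of Abcb11 and Atp8b1 were 0.35 each and the ZT8 difference of Atp8b1 was 0.23, all under 1.5-fold. Slc10a1 at ZT12 and Abcg5 at ZT8 and ZT16 were then counted in their place, all lower in DKO, so 9 of the 12 pairs were shared.

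**Figure D4:**
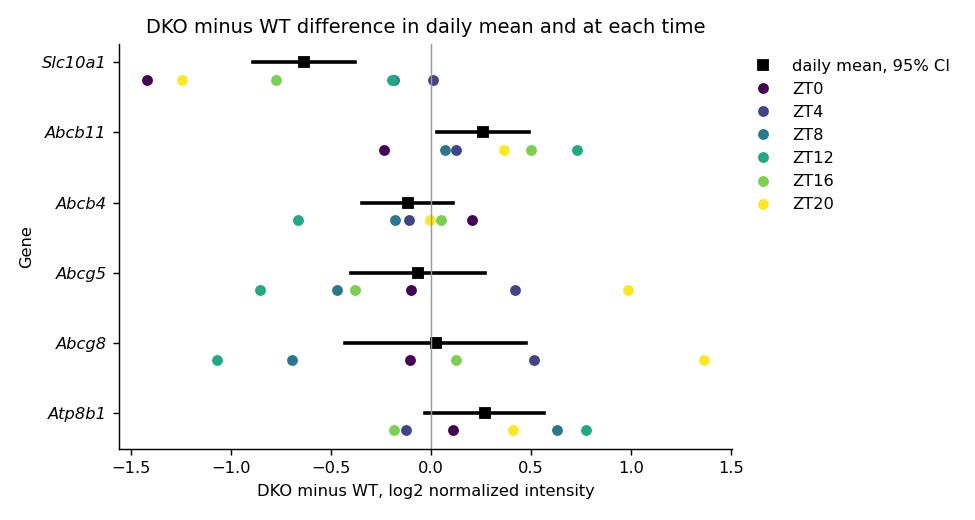
DKO minus WT difference (log2 normalized intensity, horizontal axis) for each member; squares with bars are the daily mean and its 95% confidence interval, and coloured points below them are the 6 single times. The interval lies wholly below 0 for Slc10a1 and wholly above 0 for Abcb11, and the points of Abcg8 run from -1.07 at ZT12 to 1.37 at ZT20.

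Rhythm over 24 h was tested by limma's F test of the cosine and sine terms. No member passed in DKO, in WT or in the difference between genotypes. Among all genes 4 passed in DKO (0.055%), 13 in WT (0.179%) and 0 in the difference (0%). At an unadjusted limma p under 0.05 there were 1, 3 and 3 members, beside 7.4%, 13.8% and 6.19% of all genes (450 genes for the difference).

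In WT livers the 3 members were Abcg8, with an amplitude of 0.90 and a fitted peak at ZT9.0 (limma, unadjusted p = 0.00482, adjusted p = 0.176), Abcb11, with an amplitude of 0.43 and a peak at ZT1.0 (adjusted p = 0.196), and Abcg5, with an amplitude of 0.45 and a peak at ZT10.6 (adjusted p = 0.347). The fitted peak of the bile acid pump thus fell near lights on, and those of the sterol pair fell several hours later. With median scaling the WT amplitude of Abcb11 was 0.21 (limma, unadjusted p = 0.265), and Abcb4 and Slc10a1 were then under 0.05 in WT (limma, unadjusted p = 0.0149 and 0.0187) beside Abcg5 and Abcg8. In DKO livers the member was Slc10a1, with an amplitude of 0.52 and a peak at ZT10.0 (limma, unadjusted p = 0.00397, adjusted p = 0.423). Its unadjusted limma p was 0.02 without the DKO ZT0 sample. For the difference the members were Slc10a1, Abcg5 and Abcg8 (limma, unadjusted p = 0.00565, 0.0357 and 0.0382), with adjusted p of 0.517, 0.75 and 0.765.

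The fitted amplitude was lower in DKO than in WT for 5 of the 6 members. It was 0.17 in DKO and 0.90 in WT for Abcg8, 0.11 in DKO and 0.43 in WT for Abcb11, and 0.04 in DKO and 0.29 in WT for Atp8b1. Slc10a1 was the exception, with 0.52 in DKO and 0.27 in WT livers. The size of its amplitude depended on the scaling: without background correction it was 0.23 in DKO and 0.15 in WT. Without the DKO ZT0 sample it was 0.39 in DKO. The median over members was 0.17 in DKO and 0.36 in WT, beside 0.16 in DKO and 0.19 in WT over all genes, of which 41.2% had the higher amplitude in DKO. A low 24 h amplitude was not a flat course: Abcg8 in DKO livers spanned 1.02 between ZT4 and ZT0, and its high values at ZT4 and ZT20 lay on both sides of the low one at ZT0. Without the DKO ZT0 sample its DKO amplitude was 0.50 and that of Abcg5 0.48, against 0.17 and 0.21 with it, so these 2 amplitudes rest on that sample. Abcg5 then lay above its WT amplitude of 0.45, and the amplitude was lower in DKO for 4 of the 6 members. The unadjusted limma p of the difference in rhythm was then 0.00113 for Abcg8 and 0.00221 for Abcg5, with an adjusted p of 0.474 for both.

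**Figure D5:**
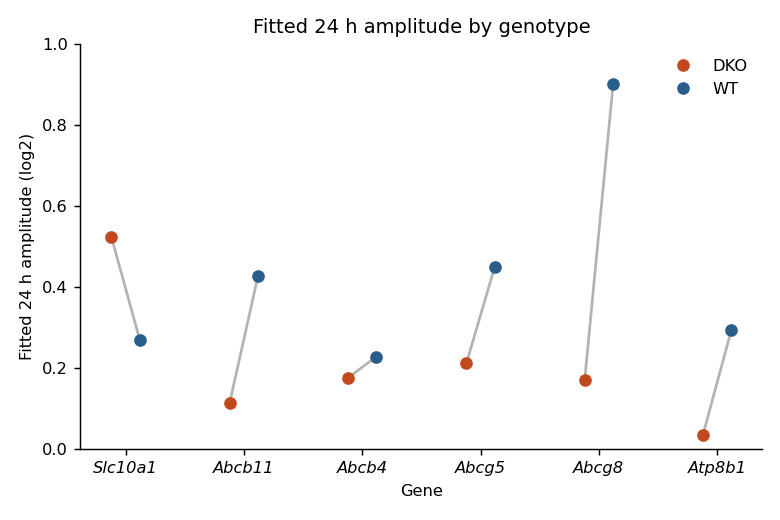
Fitted 24 h amplitude (log2, vertical axis) of each member in DKO (orange, left) and WT (blue, right), from the harmonic model over 6 times per genotype. Grey lines join the genotypes; Slc10a1 is the only member with the higher point in DKO, and Abcg8 in WT is the highest point at 0.90.

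The genes whose course was most like a member's over the 12 samples are given by Pearson correlation, as a description of samples that share slides and times. For Slc10a1 they were Rtn4ip1 (r = 0.89) and Grtp1 (r = 0.88). Abcb11 was most like Git1 and Psmg1 (r = 0.91 each). Abcb4 went with Pabpc1, the cytoplasmic poly(A)-binding protein (r = 0.90), and Zfp2 (r = 0.87). Hnrnpf, an RNA-binding protein, came before Abcg8 for Abcg5 (r = 0.87), and Ep400, a chromatin remodeller, came before Abcg5 for Abcg8 (r = 0.89). Atp8b1 was most like Uqcrc2, a subunit of mitochondrial complex III (r = 0.92), and Gpx1, a glutathione peroxidase (r = 0.91).

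Other genes of bile formation were counted in lists drawn up with earlier results of these data known. Among 5 other sinusoidal carriers tested, 0 were higher and 1 was lower in DKO, Abcc3, the basolateral conjugate exporter MRP3. It averaged 11.41 ± 0.24 in DKO and 12.32 ± 0.28 in WT livers (SD, n = 6 each), a difference of -0.90 ± 0.13 (SE; limma, adjusted p = 0.0058), lower at 6 of 6 times. Slco1b2 and Slco2b1, organic anion uptake carriers that share the membrane of Slc10a1, differed by -0.07 and -0.01 and did not pass (limma, adjusted p = 0.767 and 0.968). Of 5 other canalicular pumps and cholesterol carriers 0 passed in either direction at the adjusted limma threshold and 1 had an unadjusted p under 0.05, Abcc6, at -0.29 (adjusted p = 0.128), beside 28.6% of all genes at that unadjusted level.

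Of 7 membrane anchoring and trafficking partners, 0 were higher and 1 was lower, Slc9a3r1 (NHERF1), a scaffold of apical transporters, by -0.56 ± 0.09 (SE; limma, adjusted p = 0.0105). Tmem30a, the subunit that P4-type flippases such as Atp8b1 need to leave the endoplasmic reticulum, differed by 0.34 and did not pass (limma, adjusted p = 0.0805). Among 9 nuclear receptors and factors of bile acid and sterol sensing, 3 were lower and 0 higher: Ppara by -0.81 (adjusted p = 0.00894), Nr1i3 (CAR) by -0.63 (adjusted p = 0.0184) and Nr1i2 (PXR) by -0.47 (adjusted p = 0.0499; limma each). Nr1h4 (FXR), the receptor that activates Abcb11, averaged 13.12 in DKO and 13.41 in WT livers, and Nr1h3 (LXR alpha), which activates Abcg5 and Abcg8, averaged 12.40 in DKO and 12.48 in WT livers. Neither passed (limma, adjusted p = 0.182 and 0.591).

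Of 11 bile acid synthesis and conjugation enzymes 0 passed at the adjusted limma threshold and 3 had an unadjusted p under 0.05, near the 28.6% of all genes. One of these, Akr1d1, was detected on 0 of 12 DKO arrays and 6 of 12 WT arrays, and its WT mean of 6.85 lay under the detection floor of 6.97 on the DKO arrays, so no difference is given for it. Cyp7a1, the rate-limiting enzyme of the classical pathway, averaged 13.15 ± 0.99 in DKO and 13.27 ± 0.65 in WT livers (SD, n = 6 each; limma, adjusted p = 0.884). The median difference was -0.01 over the sinusoidal carriers, -0.08 over the canalicular list, -0.17 over the anchoring partners, -0.29 over the nuclear receptors and -0.11 over the enzymes, beside 0.02 over all genes. In all, 8 of 64 listed genes other than the members passed, cell type markers included, beside 9.31% of all genes, and 0 did with slide as a fixed block. With slide as a random block 2 did, Abcc3 and Slc9a3r1 (limma, adjusted p = 0.0378 and 0.0484), and Nr1i2 and Lyve1 did not pass with time as a factor (limma, adjusted p = 0.0772 and 0.0767).

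Bulk liver RNA cannot tell fewer cells of a type from less RNA per cell, so the levels of other cells are given beside the transporters. Over 5 hepatocyte markers the mean was 13.81 to 14.02 in DKO and 13.94 to 14.14 in WT samples, with 1 of 5 lower, Alb (limma, adjusted p = 0.0134). Its probe was detected on 1 of 12 DKO arrays and 8 of 12 WT arrays, so the size of that difference was not measured. The mean over the 5 markers includes that dim probe. The other tested markers, Ttr (-0.006), Apoa1 (-0.004), Serpina1a (-0.12) and Cps1 (0.25), did not pass (limma, adjusted p = 0.122 to 0.975). Of 6 cholangiocyte markers 1 was tested, Sox9, which was higher in DKO (limma, adjusted p = 0.0213). Its probe was detected on 10 of 12 DKO arrays and 6 of 12 WT arrays, so the size of that difference was not measured. It did not pass with slide as a fixed or a random block (limma, adjusted p = 0.912 and 0.104). Krt19, Krt7, Epcam, Spp1 and Cftr did not pass the detection filter or were not on the array. Of 3 endothelial markers Lyve1 was higher by 0.86 (limma, adjusted p = 0.0488), and it did not pass without the DKO ZT0 sample (limma, adjusted p = 0.0868). Of 3 macrophage, 2 neutrophil, 4 stellate and 9 acute phase genes 0 passed at the adjusted limma threshold and 3 had an unadjusted p under 0.05, against 28.6% of all genes. All 3 were higher in DKO: Clec4f by 0.41, S100a8 by 0.89 and Reln by 0.30 (limma, adjusted p = 0.143, 0.172 and 0.1). Lcn2 had the largest acute phase difference at 1.17 (adjusted p = 0.388). No T or B cell marker passed the detection filter.

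In the DKO ZT0 sample, where Slc10a1 was lowest, the mean of 9 acute phase genes was 13.10, against 11.51 to 12.64 in the other DKO samples and 11.65 to 13.06 in WT samples. The mean of 3 macrophage markers there was 10.32, against 8.93 to 9.71 in the other DKO samples and 8.69 to 9.47 in WT samples. In the DKO ZT20 sample, the second lowest for Slc10a1, these means were 11.85 for the acute phase genes and 8.93 for the macrophage markers, and the neutrophil mean was 8.76. The part of these levels in the Slc10a1 values was not tested beyond leaving the ZT0 sample out.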

How the data were processed

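Per the labels' protocols, Trizol RNA was treated with DNase, and biotinylated cRNA was hybridised. The deposited signal is the mean bead intensity of a probe on a linear scale with no normalization between arrays, and the deposited detection p-value sets a probe against its array's negative controls, per the file headers. GenomeStudio is named in the submitters' processing notes; its version and the genome build are not given in these sources. The authors' processed intensity table has medians of 278.76 to 278.97 on each array and the same ranks as the raw signals (Spearman correlation 1), so it was taken as linear and not centred by gene; its normalization stays unknown.

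Computed here, in R 4.3.3 with limma 3.58.1: signals were background-corrected by normexp from the detection p-values (offset 16), quantile normalized and put on a log2 scale. A probe was kept where, in at least 2 of the 12 groups, its detection p was under 0.01 on each array (10243 of 25697), and each symbol was represented by its brightest kept probe (7272 genes). Names came from the platform annotation (23978 probes with 1 symbol, 0 with several, 1719 with none listed). Variance between the arrays of 1 group was 1.14 to 1.78 times that expected from bead error, against 2.88 to 8.02 times between times of a genotype, and the arrays were averaged to 1 value. The harmonic model had 6 residual and 3.32 prior degrees of freedom. Arrays had 38.1 to 40.6 beads per probe, and having 1 RNA sample per genotype and time limits the precision. The fit was tested on simulated data with independent noise and no slide effect, so that test does not bear on the slides.

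The members, the gene lists and the tests were chosen with earlier results of these data known. Named genes were the members, up to 4 genes that passed in each list (otherwise the 1 with the largest difference), and the 2 genes most correlated with each member, predicted transcripts passed over. Nr1d1, Nr1d2, Cyp7a1, Slco1b2, Slco2b1, Tmem30a, Nr1h4, Nr1h3, Ttr, Apoa1, Serpina1a, Cps1, Hp and Fga are further genes named for their role. Same-numbered arrays of different groups did not deviate together (correlation -0.05 to 0.06 over 66 pairs of groups), so the numbers were not taken as pairs. Promoter sequences are RefSeq's, matched by symbol. The search also left out every window on 1 chromosome, and it gave windows for 5 of 6 members. Whether Atp8b1 has a RefSeq window on the chromosome left out was not checked. Its lack of a window is thus a feature of this search, and the motif counts do not cover it.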

Additional observations from a re-analysis of the deposited data

Results flagged for a closer look

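The DKO minus WT differences of the sterol transporter pair went opposite ways at different times. Abcg8 was lower in DKO livers at ZT8 (-0.70) and ZT12 (-1.07) and higher at ZT20 (1.37), with both arrays of 1 genotype apart from both of the other each time. Abcg5 was lower in DKO livers at ZT12 (-0.85) and higher at ZT20 (0.99). Whether the differences differ between these times was not tested, because each time has 1 RNA sample per genotype. The nearest test, of the difference in 24 h rhythm, had an unadjusted limma p of 0.0382 for Abcg8 and 0.0357 for Abcg5 and did not pass after adjustment (0.765 and 0.75). At ZT8 and ZT12 DKO samples were on slide 1 and WT samples on slide 3, and at ZT20 DKO was on slide 2 and WT on slide 3, so at a single time slide and genotype cannot be told apart.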

How the results depend on the processing

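The Slc10a1 difference kept its sign in all fits, from -0.85 to -0.31, and passed in 24 of 24 fits that left out an array, 12 of 12 that left out a sample and 2 of 6 that left out a time. The count of members that passed in daily mean was 1 as reported, 0 with slide as a fixed or random block, with time as a factor and without ZT8, ZT12, ZT16 or ZT20, and 2 with median scaling. Median scaling moved the median of all genes to -0.20, with 186 of 2182 calls higher (8.52%, against 46.4% of 677 as reported). Under it Abcb4 passed at -0.36 (adjusted p = 0.0376) and Abcg8 was -0.21, which is level with that median. Abcb11 was 0.02 and Atp8b1 0.03, neither past the threshold. With the 24 arrays as separate samples, which counts technical replicates as independent, 3 members passed in daily mean (Abcb11 and Atp8b1 added), 1 for rhythm in DKO, 4 in WT and 4 for the difference. With the replicate number as a block in that fit the counts were again 3, 1, 4 and 4. Over all genes that fit called 2680 (2610 with the block), against 123 with slide as a random block, 142 to 541 without a time and 1019 over all kept probes. Signs of differences that had not passed turned with slide as a fixed block for Abcb4 (0.28), Abcg5 (0.20) and Atp8b1 (-0.42). Abcg5 turned without ZT0 (0.15), without the DKO ZT0 sample (0.067) and without the WT ZT0 sample (0.022). Abcg8 turned without ZT4 (-0.16), without ZT20 (-0.16), without the DKO ZT4 (-0.092) or ZT20 (-0.14) sample, and without the WT ZT4 (-0.043), ZT8 (-0.0057) or ZT16 (-0.052) sample. The cause was not tested. The count of 12 member and time pairs at single times was 10 to 12 under the 5 other scalings and filters, with 9 of the 12 pairs shared under median scaling. The other listed genes that passed were 8 as reported, 7 without the DKO ZT0 sample, 0 and 2 with slide as a fixed and a random block, and 8 with time as a factor (6 shared, with Rxra and Clec4f in place of Nr1i2 and Lyve1), which were alternatives added after the data were seen. Slide and genotype overlap on slide 2 alone, dim signal limits Slc10a1, and 1 RNA sample per genotype and time limits all single-time values.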

Other observations

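The course of Abcb11 over the day correlated with those of Abcb4, Abcg5 and Abcg8 above 0 in DKO livers and below 0 in WT livers. Of the 14 pairs of members other than Abcg5 with Abcg8, 9 had opposite signs in DKO and WT. The share over all pairs of genes was not computed, so the count is not read as a trait of the members. Abcb11 and Abcb4 correlated at 0.46 over the 6 DKO samples and at -0.84 over the 6 WT samples. Abcb11 and Abcg5 correlated at 0.76 in DKO and at -0.73 in WT, and Abcb11 and Abcg8 at 0.65 in DKO and -0.54 in WT. In WT the low point of Abcb11 and the high points of Abcb4, Abcg5 and Abcg8 all fell at ZT12, whereas in DKO the highest values of Abcb11, Abcb4 and Abcg5 fell at ZT20 and that of Abcg8 at ZT4. Atp8b1 went with Abcb11 in WT (-0.17 in DKO, 0.67 in WT) and against Abcg8 (0.14 in DKO, -0.72 in WT). These are descriptions over 6 samples that share slides and times, and the difference between genotypes was not tested.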
